A study of Homo sapiens with 8 samples.

Results

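Endothelial C-type lectins and multimerins are surface receptors and secreted matrix proteins that in part bind one another. The 8 genes CLEC14A, CD93, CLEC1A, CLEC2B, CLEC3B, CLEC11A, MMRN1 and MMRN2 were taken by their symbols from a table of 30386 genes. They were chosen by name with results of the same comparison already known, so their differences between groups are given as a description, with no p-value. The samples were endothelial cells (iEC) and retinal endothelial cells (iREC) differentiated from WTC-TJP1, an established human line of induced pluripotent stem cells. The series title calls the second group retinal, while the sample labels give both the same endothelial cell type, and retinal identity was not checked here. The labels give 4 samples per group, lettered C, D, E and F, and the series text puts them at passage 1. Every sample comes from this single line, and the labels give no treatment that sets the groups apart beyond the differentiation. Nothing in the labels says that the samples came from separate cultures, so p-values measure only the spread between these samples, which may be technical.

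A C-type lectin domain is a protein fold first known for binding sugars in the presence of calcium, and many of its carriers bind proteins instead. CLEC14A and CD93 are single-pass receptors of endothelial cells and belong to the same small group as thrombomodulin (THBD) and endosialin (CD248). MMRN2 is a secreted endothelial matrix protein of the EMILIN and multimerin family, and it is a ligand of CLEC14A, CD93 and CD248. MMRN1 is the platelet and endothelial multimerin, which carries coagulation factor V in platelets and is used as a marker of lymphatic endothelium. CLEC1A is a receptor of endothelial and dendritic cells, CLEC2B is the ligand of the natural killer cell receptor NKp80 (KLRF1), CLEC3B (tetranectin) is a secreted plasminogen-binding protein, and CLEC11A is a secreted growth factor of stem and bone-forming cells.

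RefSeq promoter windows on GRCh38.p14 were found for 5 of the 8 genes (CLEC14A, CLEC3B, CLEC11A, MMRN1 and MMRN2), each running from 250 bases before a RefSeq start to 50 after it. The stretches below are shown for the secreted members that were higher in iREC, and each ends before the RefSeq start and before any GENCODE 29 exon in its window. Capitals mark the ETS motif AGGAAG and the GATA motif AGATAA on either strand (AGGAAG reads CTTCCT and AGATAA reads TTATCT on the other strand). The MMRN1 stretch, chr4:89879261-89879510, plus strand, lies in no annotated gene. The CLEC3B stretch, chr3:45026053-45026182, plus strand, lies in an intron of a longer CLEC3B transcript and of EXOSC7. The CLEC11A stretch, chr19:50723114-50723328, plus strand, lies in no annotated gene.
MMRN1: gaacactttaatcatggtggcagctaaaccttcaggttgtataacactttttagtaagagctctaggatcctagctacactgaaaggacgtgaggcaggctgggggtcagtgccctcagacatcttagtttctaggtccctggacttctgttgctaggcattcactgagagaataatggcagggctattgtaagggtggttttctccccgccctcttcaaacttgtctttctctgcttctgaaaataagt
CLEC3B: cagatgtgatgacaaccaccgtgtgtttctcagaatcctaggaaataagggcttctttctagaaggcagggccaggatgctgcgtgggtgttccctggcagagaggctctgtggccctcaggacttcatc
CLEC11A: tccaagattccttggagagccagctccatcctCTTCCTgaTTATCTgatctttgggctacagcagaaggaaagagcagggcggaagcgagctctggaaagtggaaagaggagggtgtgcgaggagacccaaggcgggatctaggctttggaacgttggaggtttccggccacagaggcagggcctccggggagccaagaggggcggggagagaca
The motifs were picked with these sequences in view. AGGAAG was found in windows of CLEC11A, MMRN1 (at its second start) and MMRN2, where 33.6% of all 35116 windows hold it, and AGATAA in that of CLEC11A, where 10.3% do. The TATA motif TATAAA, held by 11.5% of all windows, was in none of the windows of these 5 genes. In the CLEC11A stretch the 2 matches lie next to each other, separated by a pair of bases. A match is a run of letters and not a measured binding site.

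The iEC libraries held 14877502 to 16971865 counts and the iREC libraries 13739364 to 15987839. The detection floor, set at 3 counts, stood for 0.177 to 0.214 CPM (counts scaled to a common library size, with TMM factors). All 12 endothelial markers were tested (PECAM1, CDH5, VWF, ERG, TIE1, KDR, EGFL7, ESAM, ROBO4, CLDN5, EMCN and TEK), and their summed level was 7533 to 9551 CPM in iEC and 4564 to 10243 CPM in iREC. Sample F stood apart within iREC. Its endothelial sum of 4564 CPM was the lowest of the 8 samples, against 7879 to 10243 CPM in the other iREC samples. The sum of 12 mesenchymal and mural markers was 4457 CPM in iREC F, 626 to 1251 CPM in the other iREC samples and 261 to 508 CPM in iEC. Of these markers 10 were tested and 4 called, TAGLN and LUM higher in iREC and THY1 and RGS5 lower. TAGLN alone was 731 CPM of the sum of 1002 CPM in iREC C. The sum of 6 epithelial markers was 4912 CPM in iREC F, 301 to 1115 CPM in the other iREC samples and 390 to 1171 CPM in iEC. The sum of 5 pluripotency markers was 516 CPM in iREC F, 57.9 to 184 CPM in the other iREC samples and 12.9 to 52.7 CPM in iEC, so the groups did not overlap. LIN28A made up most of it in iREC F, at 480.4 CPM, and was called higher (adjusted p by edgeR 0.0242). Its own groups overlapped, with 20.5 CPM in iREC C and 32.3 CPM in iEC C. DNMT3B was 4.21 to 25.6 CPM in iEC and 35.4 to 37.3 CPM in iREC and was not called. POU5F1 was at most 1.16 CPM in any sample and did not pass the filter, while NANOG and TDGF1 were at or under 3 counts in every sample. In bulk samples, fewer cells of a type and less RNA per cell cannot be told apart. Whether these markers came from other cells or from the endothelial cells themselves was not tested, nor was any part of other cells in the results.

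The lectins and multimerins split between the groups. MMRN1, CLEC3B and CLEC14A were higher in every iREC sample than in any iEC sample, CLEC2B was lower in every iREC sample, and CLEC11A was higher with overlapping groups. CD93, MMRN2 and CLEC1A overlapped between the groups. All 8 genes passed the filter on low counts. edgeR's quasi-likelihood test called 5 of the 8 at an adjusted p under 0.05, where 25.0% of the 15330 tested genes were called. Of these, 4 were higher in iREC, against 13.2% of tested genes called higher, and 1 was lower, against 11.7% called lower. The groups did not overlap in 4 of the 8, against 29.1% of tested genes. Nothing is read from these counts, since the genes were chosen with this contrast known. The median log2 fold change was 0.60 over the 8 genes and 0.020 over all tested genes.

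**Figure D1:**
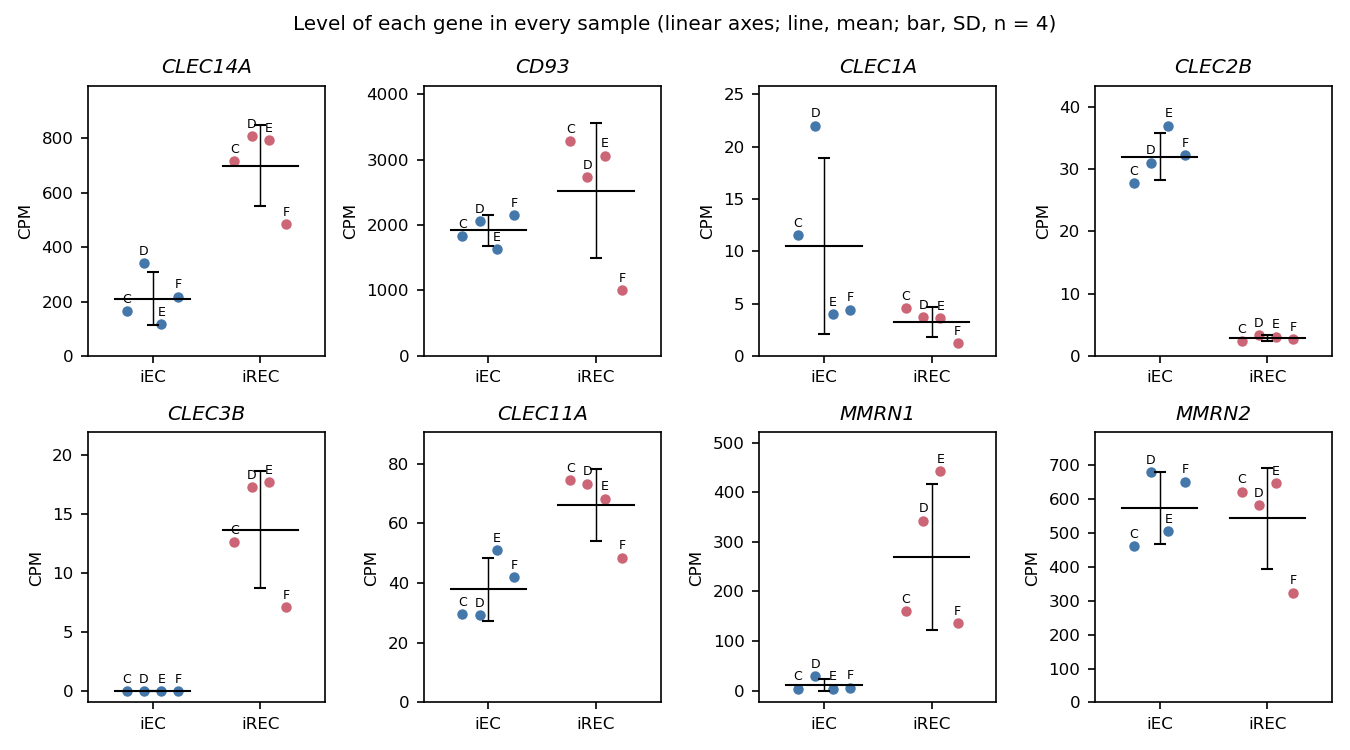
Level of each of the 8 genes in CPM (linear axes, a separate scale per gene) in 4 iEC and 4 iREC samples, with the sample letter over each point, the mean as a line and the SD as a bar. The groups are apart for CLEC14A, CLEC2B, CLEC3B and MMRN1, and iREC F is the lowest iREC sample for 7 of the 8 genes.

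Of the receptors, CLEC14A (ENSG00000176435) is a single-exon gene of 2267 bases on chromosome 14, 38254103 to 38256369 on GRCh38, minus strand. Its level in samples C, D, E and F was 165, 342, 116 and 217 CPM for iEC and 716, 808, 793 and 484 CPM for iREC. The highest iEC sample, D, lay below the lowest iREC sample, F. The means were 210 ± 97.3 and 700 ± 150 CPM (SD, n = 4), which on the log2 scale is a difference of 1.74 ± 0.32 (SE) and a 3.33-fold higher level in iREC.

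CD93 (ENSG00000125810, chromosome 20, 23079349 to 23086340, minus strand) binds MMRN2 and takes part in endothelial adhesion and vessel sprouting. It was among the most abundant transcripts of both groups, at place 31 of the tested genes by mean CPM in iEC and place 21 in iREC. Its level in samples C, D, E and F was 1828, 2060, 1632 and 2148 CPM for iEC and 3284, 2736, 3060 and 1010 CPM for iREC. iREC C, D and E lay above all iEC samples and iREC F below all of them. The means were 1917 ± 233 and 2522 ± 1033 CPM (SD, n = 4), with a log2 fold change of 0.40 ± 0.32 (SE). CD93 was not called with all samples. Without iREC F its log2 fold change was 0.66 and it was called.

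CLEC1A (ENSG00000150048, chromosome 12, 10069554 to 10111627, minus strand) was low in both groups. Its level in samples C, D, E and F was 11.5, 22.0, 4.02 and 4.43 CPM for iEC and 4.57, 3.70, 3.59 and 1.24 CPM for iREC. iEC fell into a high pair, C and D, and a low pair, E and F, and the low pair lay within the iREC range. The log2 fold change of -1.68 ± 0.60 (SE) was not called, and it was -1.02 without iEC D. It was called in 5 of 16 alternatives, among them DESeq2 and the fits without iEC E and without iEC F.

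CLEC2B (ENSG00000110852, chromosome 12, 9852984 to 9870136, minus strand) had the steadiest replicates of the set. Its level in samples C, D, E and F was 27.8, 31.0, 37.0 and 32.3 CPM for iEC and 2.42, 3.35, 3.11 and 2.68 CPM for iREC. The means of 32.0 ± 3.82 and 2.89 ± 0.419 CPM (SD, n = 4) gave a log2 fold change of -3.47 ± 0.18 (SE), an 11.1-fold higher level in iEC. It is the member in which iREC F was not the lowest iREC sample. KLRF1, the receptor of its product, was not among the genes tested. An antisense gene, AC091814.1, shares 479 bases with the exons of CLEC2B, 18.2% of them, and whether counting used the strand is not given in the sources used here.

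CLEC2B and CLEC1A lie in the same lectin gene cluster of chromosome 12, and the table listed 4 other lectin genes between them. These were low: CLEC12A, CLEC12B and CLEC9A had means under 1 CPM in both groups and did not pass the filter. CLEC1B, the platelet podoplanin receptor, had 1 count in iEC D, 0 in the other iEC samples, and 19, 9, 21 and 12 counts in iREC C, D, E and F. That is 62.1 times more in iREC per library (95% exact interval of the ratio 10.7 to 2494, counting error only). CLEC2B was thus higher in iEC and CLEC1B in iREC within the same cluster.

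Of the secreted members, CLEC3B (ENSG00000163815, chromosome 3, 45001548 to 45036071, plus strand) had 0 counts in all 4 iEC samples. It had 194, 243, 291 and 109 counts in iREC C, D, E and F, which is 12.7, 17.3, 17.7 and 7.12 CPM. The iREC mean was 13.7 ± 4.95 CPM (SD, n = 4), at least 64.0-fold higher than the floor of 3 counts in the iEC library where that floor was highest. A fitted fold change is not given because it depends on the prior count. EXOSC7, an RNA exosome subunit on the same strand, shares 604 of the exonic bases of CLEC3B (54.7%), so the CLEC3B values can miss reads from the shared part. EXOSC7 itself averaged 28.7 CPM over the iEC and 26.2 CPM over the iREC samples.

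CLEC11A (ENSG00000105472, chromosome 19, 50723329 to 50725718, plus strand) in samples C, D, E and F was 29.6, 29.3, 51.1 and 41.9 CPM for iEC and 74.5, 73.3, 68.3 and 48.5 CPM for iREC. iREC F lay below iEC E, and the other iREC samples lay above all iEC samples. The means were 38.0 ± 10.6 and 66.2 ± 12.1 CPM (SD, n = 4), which on the log2 scale is a difference of 0.80 ± 0.22 (SE). It was called with all samples and in 10 of 16 alternatives. The call was lost without iEC C, iEC D, iREC C, iREC D or iREC E, and with the replicate letter as a block.

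Of the multimerins, MMRN1 (ENSG00000138722, chromosome 4, 89879532 to 89954629, plus strand) differed most among those with counts in both groups. Its level in samples C, D, E and F was 3.96, 29.1, 4.07 and 6.0 CPM for iEC and 160, 342, 443 and 136 CPM for iREC. iEC D lay far above the other iEC samples and still below every iREC sample. The means were 10.8 ± 12.2 and 270.1 ± 147 CPM (SD, n = 4), which on the log2 scale is a difference of 4.65 ± 0.77 (SE). Without iEC D the log2 fold change was 5.85.

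The cell types best known for MMRN1 were looked at beside it. Of the lymphatic markers, PROX1, the master regulator of lymphatic fate, was at most 0.378 CPM in iEC and at most 0.498 CPM in iREC, and CCL21 was at or under 3 counts in every sample. The hyaluronan receptor LYVE1 was 313 to 775 CPM in iEC and 198 to 500 CPM in iREC, with overlapping groups. FLT4 was also present in both groups, at 163 to 255 CPM in iEC and 164 to 250 CPM in iREC. PDPN was 15.2 CPM in iREC F and at most 3.78 CPM in any other sample, and RELN was at most 0.570 CPM. None of these lymphatic markers was called, and whether lymphatic cells were present was not tested. The sum of 7 megakaryocyte and platelet markers was 2.57 to 5.43 CPM in iEC and 3.85 to 10.5 CPM in iREC. Of these, GP1BB and PPBP were at or under 3 counts in every sample. Factor V (F5), the cargo of MMRN1 in platelets, did not pass the filter, with means of 0.0357 CPM in iEC and 0.173 CPM in iREC.

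MMRN2 (ENSG00000173269, chromosome 10, 86935540 to 86969481, minus strand) in samples C, D, E and F was 460, 678, 505 and 651 CPM for iEC and 621, 581, 647 and 324 CPM for iREC. iREC F was the lowest of all 8 samples, and the other iREC samples lay inside the iEC range. The means were 574 ± 107 and 544 ± 149 CPM (SD, n = 4), and the log2 fold change was -0.08 ± 0.23 (SE). It was called in 0 of 16 alternatives, and its log2 fold change ran from -0.18 to 0.10 among them. SNCG and ADIRF lie across MMRN2 on the opposite strand and share none of its exonic bases (0 each), while ADIRF-AS1, at 2.0 CPM in iEC and 1.56 CPM in iREC, shares 440 of them on the same strand.

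The order of the genes by level was compared on the deposited FPKM, which scale each count by gene length. In iEC the order of the mean FPKM was CD93 at 285 ± 38.8, MMRN2 at 107 ± 21.2, CLEC14A at 92.2 ± 42.2, CLEC11A at 25.8 ± 7.37 and CLEC2B at 12.1 ± 1.51 (SD, n = 4). Below these came CLEC1A at 3.27 ± 2.59, MMRN1 at 1.93 ± 2.17 and CLEC3B at 0 FPKM. The ranges of MMRN2 and CLEC14A overlapped, as did those of CLEC1A and MMRN1, and the other neighbours did not overlap. In iREC the order was CD93 at 370 ± 150, CLEC14A at 304 ± 63.2, MMRN2 at 100.2 ± 27.0, MMRN1 at 48.2 ± 26.1 and CLEC11A at 44.3 ± 7.88 FPKM. CLEC3B at 12.2 ± 4.34, CLEC2B at 1.08 ± 0.151 and CLEC1A at 1.02 ± 0.440 FPKM closed it. Here the ranges overlapped between CD93 and CLEC14A, MMRN2 and MMRN1, MMRN1 and CLEC11A, and CLEC2B and CLEC1A. MMRN1 thus moved from place 7 in iEC to place 4 in iREC, and CLEC2B from place 5 to place 7.

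**Figure D2:**
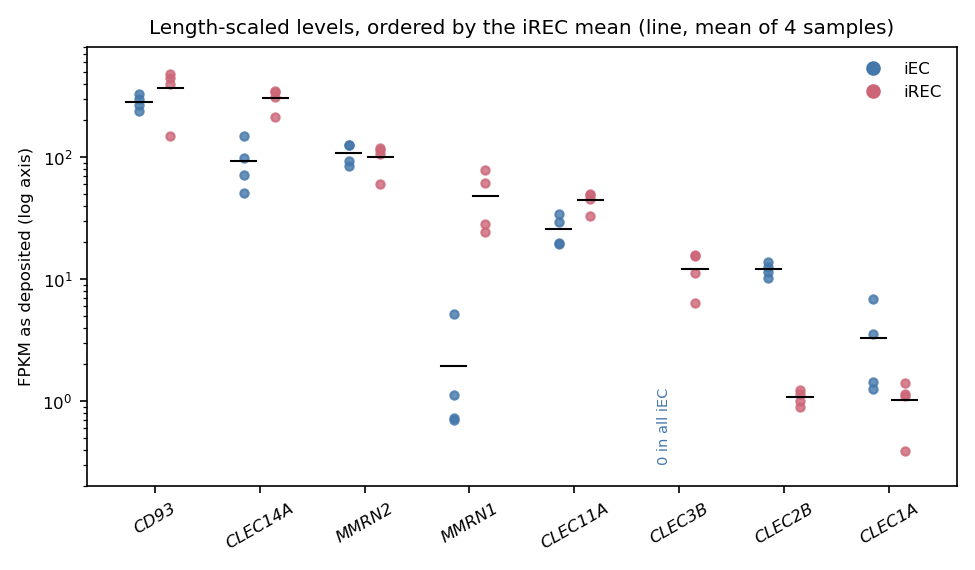
Deposited FPKM of the 8 genes (log axis) in the 4 iEC and 4 iREC samples, ordered by the iREC mean, with group means as lines. CD93 leads in both groups, CLEC14A lies near MMRN2 in iEC and above it in iREC, and CLEC3B is at 0 in iEC and has no point there.

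The receptors were set against their shared ligand within each sample, as ratios of FPKM. CLEC14A to MMRN2 in samples C, D, E and F was 0.845, 1.19, 0.540 and 0.785 for iEC and 2.71, 3.27, 2.88 and 3.52 for iREC. The ratio averaged 0.839 ± 0.267 in iEC and 3.09 ± 0.366 in iREC (SD, n = 4), the groups did not overlap, and iREC F had the highest value. CD93 to MMRN2 in samples C, D, E and F was 3.16, 2.41, 2.57 and 2.62 for iEC and 4.20, 3.74, 3.76 and 2.48 for iREC. There iREC F lay inside the iEC range and the other iREC samples above it. CLEC14A to CD93 spanned 0.210 to 0.492 among iEC samples and 0.645 to 1.42 among iREC samples, with iREC F the highest. Transcript ratios do not give protein ratios.

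**Figure D3:**
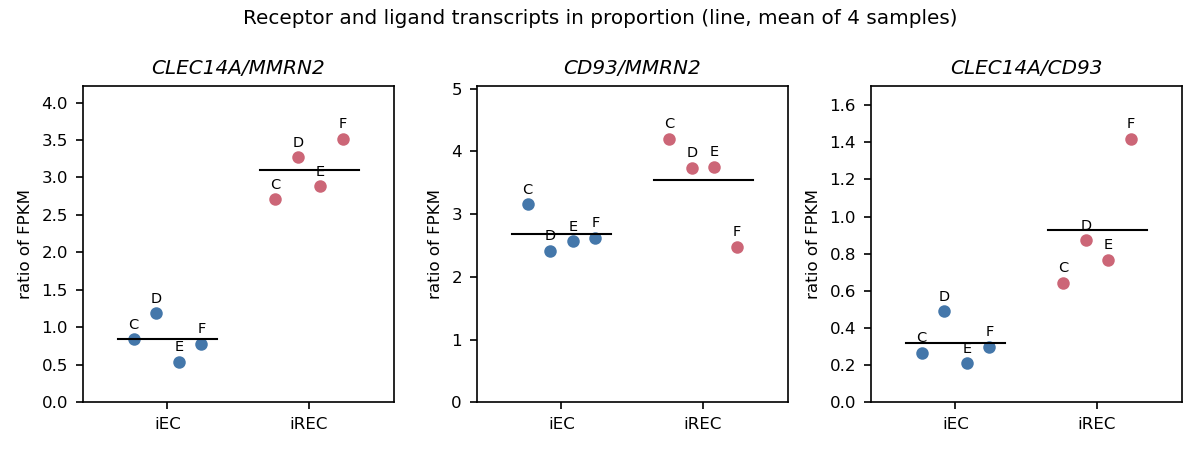
Ratio of the FPKM of the receptors CLEC14A and CD93 to their ligand MMRN2, and of CLEC14A to CD93, in each sample (linear axes from 0, sample letters over the points, group means as lines). CLEC14A to MMRN2 lies at 0.540 to 1.19 in iEC and 2.71 to 3.52 in iREC, while CD93 to MMRN2 in iREC F lies with the iEC samples.

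iREC F was the lowest iREC sample in 7 of the 8 genes, and iEC D the highest iEC sample in 4 of them. The levels were therefore also set against the summed CPM of the 12 endothelial markers, a scale chosen after the values were seen. iREC F was then the lowest iREC sample in 3 of the 8 genes (CD93, CLEC1A and CLEC3B). Per 1000 CPM of endothelial markers, MMRN2 was 59.9 to 73.8 in iEC and 63.2 to 78.9 in iREC, with iREC F at 70.9. CD93 was 216 to 243 in iEC, 299 to 417 in iREC C, D and E, and 221 in iREC F. CLEC14A was 15.4 to 35.8 in iEC and 77.4 to 106 in iREC, with the highest value in iREC F. The marker genes themselves differed between the groups, 8 of 12 being called, 3 higher and 5 lower, so this scale is not neutral.

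For each gene, the protein-coding gene with the most similar profile was sought among 9519 tested genes that averaged 10 CPM or more, as the root mean square difference of log2 CPM over the 8 samples after each gene's mean was removed. The closest were SHC2 for CLEC14A (0.104), HHEX for CD93 (0.120), THY1 for CLEC1A (0.380) and ITGA2 for CLEC2B (0.162). GUCY1B1 was closest to CLEC3B (0.389), TCTN1 to CLEC11A (0.132), HIF3A to MMRN1 (0.393) and TRPM4 to MMRN2 (0.105). The second closest were NR1H3 (0.106), KIAA1324L (0.170), BEND4 (0.508), OAF (0.275), FABP4 (0.400), NAAA (0.142), SLC40A1 (0.401) and ME3 (0.119), in the same order of members. HHEX, an endothelial and blood homeobox factor, averaged 95.9 ± 10.4 CPM over the iEC samples and 114 ± 48.3 CPM over the iREC samples. ITGA2, the collagen-binding integrin alpha 2 chain, averaged 204 ± 46.8 CPM over the iEC samples and 17.9 ± 3.32 CPM over the iREC samples (SD, n = 4). These are likenesses over 8 samples of 2 groups and carry no test. Those of CLEC3B depend on the prior count of 2, since it had 0 counts in every iEC sample.

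The other genes of the families and the known partners were taken from lists of gene names, chosen with earlier results of these data known. Many other C-type lectin genes rose in iREC, among them the platelet and endothelial adhesion receptor P-selectin (SELP), the endothelial lectin CLEC4M and the mannose receptor MRC1. Of 76 listed, 51 were in the table and 24 passed the filter. Of these 24, 16 were called, 13 higher and 3 lower, or 66.7%, against 25.0% of all tested genes. Their median log2 fold change was 1.96, against 0.020 over all tested genes. A gene seen in only 1 group passes the filter through that group, so this share describes the tested genes only. The adjusted p-values of PTPRC, SELP and CLEC4M, which had few or no counts in iEC, carry the same limit. Some of the lectin genes called higher were low even in iREC, such as CLEC1B at a mean of 0.986 CPM and CLEC4M at 4.45 CPM. Over all listed relatives and partners, 22 were called with a median log2 fold change of 1.16. A stricter filter, which tests fewer genes, left 14 called and a median of 0.67. Many lectins of these lists are known from blood cells. The sum of 9 haematopoietic markers was 25.03 to 47.8 CPM in iEC and 16.9 to 21.6 CPM in iREC. RUNX1, which endothelial cells can also express, made up most of that sum, at 24.2 to 46.3 CPM among iEC and 13.9 to 16.2 CPM among iREC samples. PTPRC, the pan-leukocyte marker CD45, went the other way, with 0 counts in every iEC sample and 42, 17, 13 and 27 counts in iREC samples C, D, E and F (adjusted p by edgeR 0.00243). The myeloid marker CD33 had 2 to 5 counts among iEC and 6 to 24 among iREC samples and did not pass the filter. SPI1, CD14 and LYZ were at or under 3 counts in every sample. Whether blood cells were present, and any part of them in the lectin differences, was not tested.

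SELP averaged 0.312 ± 0.351 CPM over the iEC samples and 52.8 ± 27.2 CPM over the iREC samples (SD, n = 4), a log2 difference of 7.39 ± 0.76 (SE) with an adjusted p by edgeR of 0.000216. It had 1, 12, 0 and 6 counts in iEC C, D, E and F, so the size of that difference rests on few iEC counts. MRC1 in samples C, D, E and F was 4.60, 20.7, 0.236 and 1.29 CPM for iEC and 257, 511, 675 and 202 CPM for iREC (adjusted p by edgeR 0.00432, log2 difference 5.94 ± 1.10, SE). As for MMRN1, iEC D was the highest iEC sample and iREC E the highest iREC sample. CLEC4M, also called L-SIGN, had 3 counts in iEC, all in sample D, and 275 in iREC, 93.4 times more per library (95% exact interval 31.6 to 456, counting error only; adjusted p by edgeR 0.00119). The oxidized lipoprotein receptor OLR1 rose from 0.501 ± 0.579 to 19.9 ± 23.2 CPM with overlapping groups (adjusted p by edgeR 0.0158, log2 difference 5.32 ± 1.30, SE). iREC C had 0.653 CPM of OLR1 and iREC F 52.7 CPM, and the call was lost without iREC E and F (adjusted p 0.0630) and under limma-voom (0.172).

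The means of the closest relatives of CLEC14A and CD93 differed in opposite directions, for THBD with overlapping groups (267 CPM in iREC C, 226 CPM in iEC F). THBD, the thrombin receptor thrombomodulin, lies beside CD93 on chromosome 20, at 23045633 to 23049741. It fell from 317 ± 67.6 to 201 ± 49.3 CPM (SD, n = 4), with an adjusted p of 0.0484 by edgeR and a log2 difference of -0.66 ± 0.21 (SE). That call was lost in 9 of 16 alternatives, including each fit without iEC C, D or E or without iREC D, E or F, with adjusted p of up to 0.213. CD248, a receptor of mural and stromal cells that also binds MMRN2, rose from 11.4 ± 2.63 to 50.1 ± 20.3 CPM (SD, n = 4), with an adjusted p of 0.0011 by edgeR and a log2 difference of 2.14 ± 0.30 (SE). CD248 was highest in iREC F, at 74.2 CPM, which also had the highest mesenchymal marker sum. The other samples did not keep that order: iREC C had 59.5 CPM of CD248 with a sum of 1002 CPM, and iREC D 32.4 CPM with 1251 CPM. A link between them was not tested. The lectins that fell were the asialoglycoprotein receptor subunit ASGR1, from 10.6 ± 0.953 to 3.17 ± 0.712 CPM (adjusted p by edgeR 0.000638), and the proteoglycan BCAN, from 1.29 ± 0.245 to 0.371 ± 0.221 CPM (adjusted p by edgeR 0.0213), beside THBD. The BCAN call was lost without iEC E, iREC C or iREC D (adjusted p up to 0.0582).

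Of the other EMILIN genes, which share with the multimerins an amino-terminal EMI domain, 2 of 3 passed the filter and 1 was called. EMILIN1, an elastic fibre protein, rose from 1.61 ± 0.724 to 6.03 ± 0.846 CPM (SD, n = 4), with an adjusted p of 0.00476 by edgeR and a log2 difference of 1.91 ± 0.36 (SE). EMILIN2 was 18.2 to 22.3 CPM in iEC while iREC C, D, E and F had 6.20, 49.1, 21.3 and 300.4 CPM, and it was not called (adjusted p by edgeR 0.119). Without iREC C it was called (adjusted p 0.0373), and its log2 fold change of 2.25 was 0.36 without iREC F.

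Of 21 listed ligands, receptors and partners, 15 passed the filter and 5 were called, 4 higher and 1 lower, or 33.3%, against 25.0% of all tested genes. Their median log2 fold change was -0.14. IGFBP7, a secreted ligand of CD93, rose most, from 7.34 ± 4.46 to 289 ± 56.0 CPM (SD, n = 4), with an adjusted p of 5.06e-05 by edgeR and a log2 difference of 5.30 ± 0.41 (SE). It was 4.16 to 13.9 CPM in the iEC samples and 223 to 355 CPM in the iREC samples. The heparan sulfate proteoglycan perlecan (HSPG2), a ligand of CLEC14A, was 2816 ± 982 and 3910 ± 1128 CPM and was not called (adjusted p by edgeR 0.265). The dystroglycan gene DAG1, reported to bind CD93, was 212 ± 26.6 and 216 ± 36.3 CPM and was not called (adjusted p by edgeR 0.921, log2 difference 0.03 ± 0.15, SE).

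VEGFA, which MMRN2 binds, rose from 7.12 ± 2.72 to 33.1 ± 8.35 CPM (SD, n = 4), with an adjusted p of 0.000899 by edgeR and a log2 difference of 2.22 ± 0.30 (SE). Its receptor KDR was 2028 ± 577 and 2620 ± 1014 CPM and was not called (adjusted p by edgeR 0.424). The integrin alpha V chain ITGAV, on which cells can adhere to MMRN1, rose from 117 ± 14.5 to 399 ± 27.7 CPM, with the narrowest SE of the called partners (adjusted p by edgeR 3.78e-05, log2 difference 1.77 ± 0.12, SE). ITGB1, the beta 1 chain activated downstream of CD93, was 2436 ± 240.2 and 1841 ± 135 CPM. Its groups did not overlap, yet it was not called (adjusted p by edgeR 0.0505, log2 difference -0.40 ± 0.13, SE), and it was called by DESeq2 (adjusted p 0.0210), limma-voom and with library size only. Moesin (MSN), which links the tail of CD93 to actin, fell from 1682 ± 305 to 984 ± 210.0 CPM (adjusted p by edgeR 0.0161). The MSN call was lost without iREC D (adjusted p 0.0570) and without iREC E and F (0.121).

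Tissue plasminogen activator (PLAT), whose substrate plasminogen is bound by CLEC3B, rose from 25.3 ± 14.2 to 195 ± 64.7 CPM (SD, n = 4; adjusted p by edgeR 0.00138). ITGA11, the receptor chain for CLEC11A, was 5.99 ± 3.51 and 5.27 ± 3.13 CPM and was not called (adjusted p by edgeR 0.859).

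**Figure D4:**
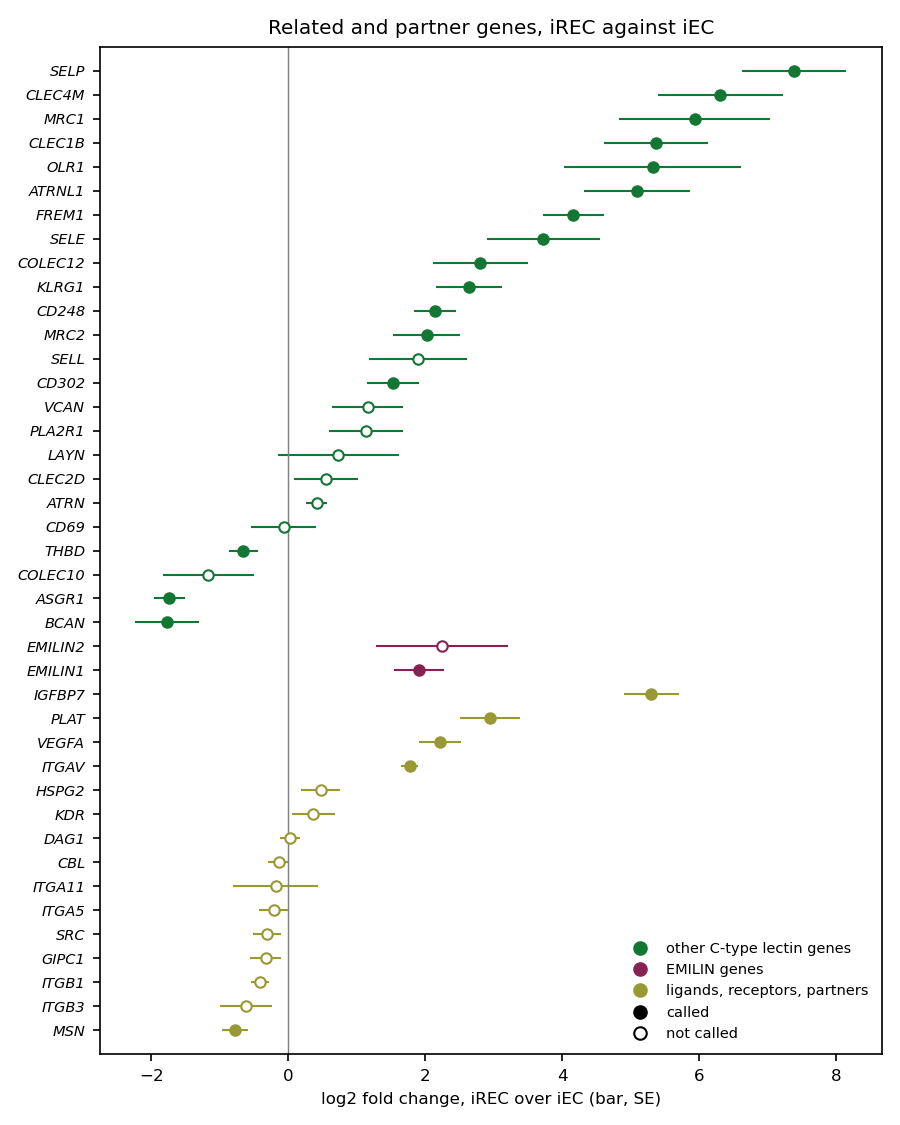
Log2 fold change of iREC over iEC (x axis, bars SE) for the 24 tested C-type lectin genes other than the 8 members, 2 EMILIN genes and 15 ligands, receptors and partners; filled points were called by edgeR at an adjusted p under 0.05. The lectin genes lie mostly to the right, with 13 called higher and 3 lower, and IGFBP7 leads the partners.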

How the data were processed

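RNA of 4 iEC and 4 iREC samples was selected on poly-T beads and the second cDNA strand made with dUTP, per the labels' protocols. The submitters' processing notes name fastp, HISAT2 2.0.5 and hg38; the counting program is not given in the sources used here. The table deposited by the authors holds raw read counts, per the file headers. It also holds a normalized signal, which per sample is the count divided by a constant, and FPKM proportional to that signal over gene length, both deposited by the authors. The deposited log2 fold changes and p-values, per the file headers of iREC against iEC, were not used. Identifier, start and end matched GENCODE 29 (GRCh38) for 30378 of the 30386 genes.

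Counts were filtered with filterByExpr, scaled by TMM and compared by the quasi-likelihood F-test of edgeR 4.0.16 over 15330 genes, group as the only term, with Benjamini-Hochberg adjustment and a threshold of 0.05. limma 3.58.1 (voom) and DESeq2 1.42.0 were alternatives, with other scalings and filters, a replicate block and each sample left out. The edgeR and limma-voom fits, but not DESeq2 or the replicate block, were tried on simulated counts. These were drawn from the dispersions that edgeR estimated, so the trial cannot judge the fits where real samples depart from that model. SE comes from the coefficient and its F statistic, log2 CPM used a prior count of 2, and intervals and floors cover counting error only. The members and lists were chosen with earlier results of these data known. Besides the 8 members, the text names up to 4 called genes per direction and list with a mean of at least 1 CPM, 12 fixed relatives and partners, and the 2 closest profiles per member. CLEC1B, CLEC12A, CLEC12B, CLEC9A, KLRF1 and the overlapping genes lie outside that rule and are named for their place beside a member. Of 99 listed relatives and partners, 26 were not in the table and are not analysed here. Where 2 identifiers share a symbol, the one with more counts was used.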

Additional observations from a re-analysis of the deposited data

Results flagged for a closer look

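Dixon's test at the 95% level, which sets the distance of an end sample from its neighbour against the range, singled out samples in groups of 4. This was examined in 58 groups and gave 7, where chance gives about 2.9 if values are normal and groups independent. CPM values from the same 8 samples need not meet either condition, so no excess is read from these counts. MMRN1 in iEC D was 29.1 CPM, against 3.96 to 6.0 CPM in the other iEC samples. EMILIN2 in iREC F was 300.4 CPM, against 6.20 to 49.1 CPM, in the library with the highest mesenchymal and epithelial marker sums. EMILIN1 in iREC C was 4.76 CPM, below 6.34 to 6.55 CPM. MSN in iREC C was 1298 CPM, against 858 to 908 CPM. ITGA11 in iEC F was 11.2 CPM, against 3.66 to 4.80 CPM. CLEC4M in iEC D, at 0.189 CPM, and F5 in iEC F, at 0.143 CPM, rest on 3 counts or fewer, with 0 in the other iEC samples.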

How the results depend on the processing

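Of the 8 members, 5 were called with the settings reported and 4 to 6 in each alternative. CLEC14A, CLEC2B, CLEC3B and MMRN1 were each called in 16 of 16 alternatives, CLEC11A in 10, CLEC1A in 5, CD93 in 2 and MMRN2 in 0. Over all tested genes, 3829 were called, and 2541 without iREC E and F. Of the relatives and partners, 22 were called, and 14 under the stricter filter (1 CPM or more throughout 1 group, and 50 counts on average), which tests fewer genes. DESeq2 called 4954 genes and 29 relatives and partners. With the replicate letter as a block, 3334 genes, 24 relatives and partners and 5 members were called. Correlations of deviations across genes between same-letter samples were 0.168, -0.079, 0.029 and 0.250 for C, D, E and F. The best-correlated iREC sample had the same letter for iEC C and F, and another letter for iEC D and E. Whether the letters are pairs is thus not settled, and the main fit did not take them as such. Near 0, the sign of DAG1 changed, with log2 fold changes from -0.077 to 0.100 when 1 sample was left out and -0.0091 without iREC E and F. That of ITGA11 was -0.43 to 0.31 when 1 sample was left out, positive without iEC F or iREC C, and -0.50 without iREC E and F. The median of the relatives and partners, 1.16, was 0.67 under the stricter filter and 0.52 without iREC E and F; the cause was not tested. Genes near or under the floor of 0.177 to 0.214 CPM in both groups, such as F5, cannot show a difference at this depth.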
